A study of Mus musculus with 12 samples.

Results

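The mRNAs of the cytosolic ribosomal proteins were followed in IEC4.1 cells, a mouse line labelled as intestinal epithelial, under IFN-γ and with a small interfering RNA pool against the long noncoding RNA Nostrill. Members were chosen by gene symbol alone. The rule took every gene named Rps or Rpl with a number, optionally followed by a, x or y and then by l. Rplp0, Rplp1, Rplp2 and Rpsa were included, and the Rps6 kinases were left out. This gave 80 of the 15002 genes listed, 31 of the 40S subunit and 49 of the 60S subunit. There were 4 groups of 3 libraries. In siR_Ctrl, cells received a scrambled control siRNA. In siR_Ctrl + IFN-γ, the same cells were also given IFN-γ. In siR_Nostrill, cells received a pool of 3 siRNAs against Nostrill, and in siR_Nostrill + IFN-γ these cells were also given IFN-γ. All cells had been transfected with siRNA at 120 nM for 24 h, and IFN-γ was used at 1 ng/ml. A figure caption of the study gives 4 h of IFN-γ, while the labels give 24 h for every library without saying of what. Nostrill itself was not analysed here, so its level was not used to check the labels.

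Each ribosome is built from a small 40S subunit, which reads the mRNA, and a large 60S subunit, which forms the peptide bonds. Most of its proteins are present in a single copy, and their mRNAs are among the most abundant in a growing cell. Many of them begin with a 5′ terminal oligopyrimidine tract, called TOP, through which mTORC1 and the RNA-binding protein Larp1 control their translation. Some ribosomal proteins also act off the ribosome. Rpl13a leaves the 60S subunit after IFN-γ in myeloid cells and joins the GAIT complex, which silences the translation of inflammatory mRNAs.

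The start sites are shown because the tract is the feature that marks this family. RefSeq promoter entries of GRCm38.p6 were found for 60 of the 80 members. A run of 8 or more C or T on the given strand, touching the 10 bases on either side of the annotated start, was present in 27 of these 60, or 45.0%, against 13.5% of 27025 promoters in the table and 11.6% of those of other genes of similar length. The following windows of 30 bases are centred on the start and read 5′ to 3′, with the tract in capitals as far as the window reaches. Rpl7a is shown for the longest tract among the members, 21 bases, Rps6 and Rpl13a for their roles in mTORC1 and IFN-γ signalling, and the others because results below turn on them.
Rpl7a (chr2:26910792-26910821, plus strand): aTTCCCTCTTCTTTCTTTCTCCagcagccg
Rpl13a (chr7:45128731-45128760, minus strand): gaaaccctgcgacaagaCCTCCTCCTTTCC
Rps6 (chr4:86857353-86857382, minus strand): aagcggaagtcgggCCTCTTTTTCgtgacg
Rps27 (chr3:90213634-90213663, minus strand): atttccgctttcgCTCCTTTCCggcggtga
Rpl39 (chrX:37085208-37085237, minus strand): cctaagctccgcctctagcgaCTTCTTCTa
Rps12 (chr10:23787195-23787224, minus strand): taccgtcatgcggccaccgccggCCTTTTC
Rps23 (chr13:90923107-90923136, plus strand): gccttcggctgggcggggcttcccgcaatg
Rps21 (chr2:180257364-180257393, plus strand): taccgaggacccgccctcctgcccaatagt
Rpl36a (chrX:134585639-134585668, plus strand): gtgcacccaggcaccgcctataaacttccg
Rps23, Rps21 and Rpl36a have no run of 8 in this window. Their longest runs touching the 10 bases on either side of the start were 6, 7 and 5 bases. Missing the cut-off of 8 at an annotated start does not show that a member lacks a TOP tract. The letters CTTTC, which lie within such runs in several members, were found within the 10 bases on either side of the start, a shorter stretch than the windows printed here, on the given strand in 9 of the 60 members, or 15%, and in 2.43% of all promoters. On both strands of the whole promoter entry, CCGGAAG was found in 38.3% of members, 9.12% of all promoters and 25.7% of promoters of similar-length genes. AAGATGGCG was found in 3 of the 60 members, or 5%, against 1.49% of all promoters and 3.96% of promoters of similar-length genes.

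The 12 libraries held from 17824306 to 19093204 estimated reads on genes. The labelled cell type was compared with its markers. Of 10 epithelial markers, 5 were among the genes analysed here, and of these Krt8, Krt18, Vil1 and Cdx2 were at 0.41 TPM (a level scaled for transcript length and for depth) or less in every library, while Krt19 was at 1.41 to 3.75 TPM. The summed level of these 5 ranged from 2.12 to 4.14 TPM in siR_Ctrl, 2.59 to 3.88 in siR_Ctrl + IFN-γ, 2.26 to 3.34 in siR_Nostrill and 1.9 to 2.66 in siR_Nostrill + IFN-γ. Of 9 markers of leukocytes, fibroblasts and endothelium, 8 were analysed. The fibroblast collagens Col1a1 and Col1a2 were at 221 to 552 and 162 to 355 TPM and the proteoglycan Dcn at 16.8 to 39.7 TPM, while the macrophage gene Cd68 was at 1.27 to 3.2 TPM. The leukocyte gene Ptprc and the endothelial genes Pecam1 and Cdh5 were at 0.17 TPM or less. The summed level of these 8 ranged from 499 to 949 TPM in siR_Ctrl, 405 to 798 in siR_Ctrl + IFN-γ, 449 to 702 in siR_Nostrill and 527 to 655 in siR_Nostrill + IFN-γ. The markers measured thus go against an epithelial identity, and what this means for the ribosomal protein mRNAs was not tested.

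Ribosomal protein mRNAs made up a large part of the transcripts counted. Of the 80 members, 69 had a mean above 1000 TPM over the 12 libraries and 59 were among the 100 genes of highest mean TPM. The median of the members' mean TPM was 2654, against 17.2 for all genes tested. The subunits were alike in this, with medians of 2841 TPM for the 40S and 2510 TPM for the 60S. In single libraries the members took 19.0, 26.1 and 23.8% of all TPM in siR_Ctrl, 23.5, 27.4 and 21.4% in siR_Ctrl + IFN-γ, 25.8, 27.6 and 23.4% in siR_Nostrill, and 21.1, 21.9 and 23.1% in siR_Nostrill + IFN-γ. The 3 siR_Nostrill + IFN-γ libraries lay below the 3 siR_Nostrill libraries, by a narrow margin, and every other pair of groups overlapped. The lowest and the third highest share of all 12 were both from siR_Ctrl cells. Because the genes are short, they took only 5.25 to 10.5% of the counted reads.

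The order of levels was led by Rps2, a 40S protein at the mRNA entry, at 11903 TPM. It was followed by Rpl41, which encodes the smallest ribosomal protein, at 9199 TPM, by Rps18 at 6682 TPM, and by the stalk protein gene Rplp1 at 5990 TPM. Rpl23a, whose protein lies at the exit of the peptide tunnel, came next with 5686 TPM. Over the libraries Rps2 ranged from 10030 to 13214 TPM, Rpl41 from 7060 to 11951 TPM, Rps18 from 5370 to 7729 TPM, Rplp1 from 4231 to 7472 TPM and Rpl23a from 4995 to 6397 TPM. The ranges of neighbours thus overlapped, but within each library Rps2 was above Rpl41 and Rpl41 above Rps18. At the other end, 6 members had a mean below 400 TPM. Rpl3l, the striated muscle paralog of Rpl3, was at 0.035 TPM and was the only member that did not pass the filter on low counts, so 79 were tested. Rpl32l was at 26.6 TPM and Rps6, the substrate of the S6 kinases, at 53.4 TPM. Rps15a had 125 TPM, Rpl22 262 TPM and Rps20 313 TPM.

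**Figure D1:**
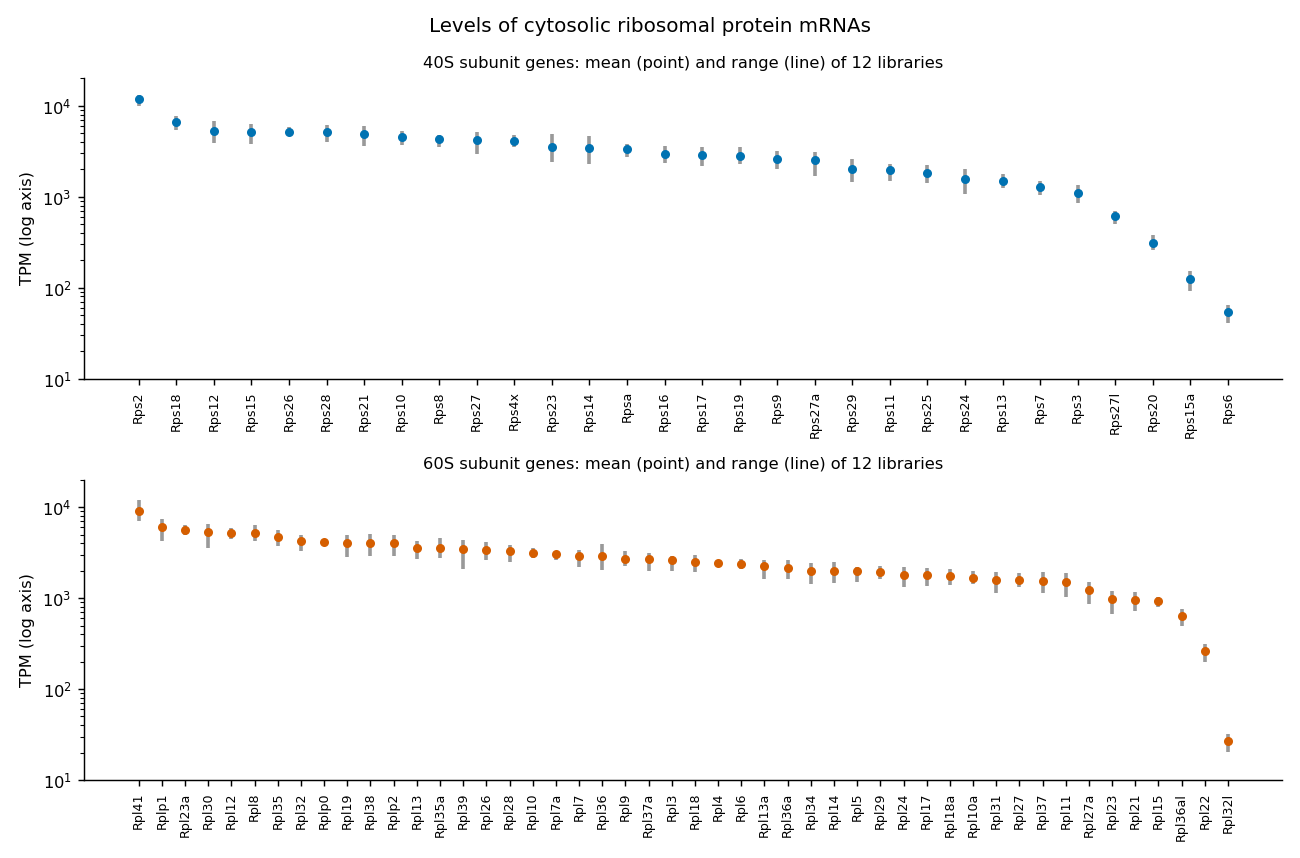
Mean TPM (points, log axis) of ribosomal protein genes above 0 in all libraries (1 member is not drawn), ordered by level within the 40S and the 60S subunit, with lines from the lowest to the highest of 12 libraries. Most of the points lie above 1000 TPM, and Rps6, Rps15a, Rps20, Rpl22 and Rpl32l lie far below.

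For Rps15a and Rps20, and less so in rank for Rpl22, the low levels depend on the lengths used by the authors. The effective length of a gene, worked back from its count and its FPKM, had a median of 467 nt over the members tested, but was 4900 nt for Rps15a, 3210 nt for Rps20 and 1967 nt for Rpl22. By mean count, Rps15a (7870 reads) ranked 67th, Rps20 (12934 reads) 47th and Rpl22 (6646 reads) 72nd of the 80, while Rps6 (791 reads), Rpl32l and Rpl3l were 78th, 79th and 80th by count as well as by TPM. Ribosomal protein genes have many near-identical processed copies in the genome, and how the authors' counting shared reads among them is not known here, so the level of any single member is uncertain. The same holds for close pairs. Rpl36a had a mean of 2126 TPM and its intronless paralog Rpl36al 629 TPM, and Rps27 had 4217 TPM against 619 TPM for Rps27l, a p53-responsive paralog. Rpl22l1, which the symbol rule does not cover, was at 425 TPM, above Rpl22. Its effective length was 251 nt against 1967 nt for Rpl22, so that this order also depends on the lengths used. Rpl10l and Rpl39l were not analysed here.

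Over the 12 libraries, the coefficient of variation of TPM was 13.4% for the median member. It was lowest for Rpl4, a protein of the peptide exit tunnel, at 3.36%, and for the stalk protein gene Rplp0 at 5.02%. It was highest for Rps23 at 24.6%, Rpl39 at 21.2% and Rpl36 at 20.7%.

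Much of the variation was shared, and it separated libraries of one group from each other. On the log2 scale of normalized counts, the median member lay 0.70 below its mean over all libraries in siR_Ctrl replicate 1 and 0.30 above it in replicate 2 of the same group. In siR_Ctrl + IFN-γ, the 3 libraries were at -0.02, 0.59 and -0.30, in siR_Nostrill at 0.34, 0.44 and -0.12, and in siR_Nostrill + IFN-γ at -0.35, -0.18 and 0.03. Other genes of similar length moved the same way. These are the 1466 tested genes outside the family with an effective length from 214 to 1163 nt, the 10th to 90th percentile of the members. Their medians were -0.52, 0.15 and -0.02 in siR_Ctrl and 0.30, 0.29 and -0.07 in siR_Nostrill. The 3131 genes over 4000 nt went the opposite way, at 0.41 in siR_Ctrl replicate 1 and -0.25 in siR_Ctrl + IFN-γ replicate 2. When a trend of counts with effective length was fitted on the other genes of each library and removed, the median member lay between -0.06 and 0.13 in 11 libraries and at -0.17 in siR_Nostrill + IFN-γ replicate 1. In these bulk samples, levels are relative to the other genes of a library, so a change in the number of cells or in total RNA per cell cannot be seen.

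**Figure D2:**
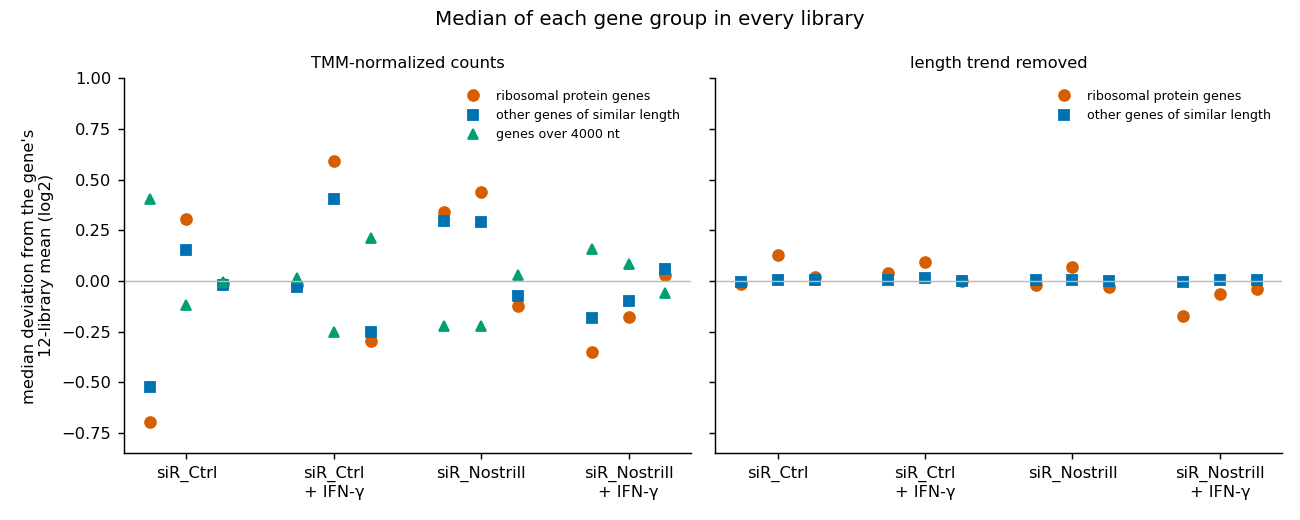
Median deviation of each gene group from the 12-library mean (log2), one column of points for each library in replicate order within its group, before (left) and after (right) removal of the length trend. Ribosomal protein genes move with other genes of similar length and opposite to genes over 4000 nt, with siR_Ctrl replicate 1 at -0.70, and after removal the 3 siR_Nostrill + IFN-γ libraries lie at -0.17, -0.06 and -0.04.

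The effect of IFN-γ was compared within siR_Ctrl cells first. No member passed an adjusted p of 0.05 (edgeR, quasi-likelihood, p-values adjusted by Benjamini and Hochberg), a threshold at which 5.45% of the 11900 genes tested were called. No member had an unadjusted p below 0.05, against 14.6% of all genes. None was called by DESeq2 or by limma on FPKM. The share of all genes these tools called in this comparison is not given here, so that count has no background beside it. The lowest adjusted p among the members was 0.564. The smallest p belonged to Rps16, with a log2 fold change of 0.40 (SE 0.26, adjusted p = 0.564), and to Rpl36 at 0.48 (SE 0.31, adjusted p = 0.564). Only Rps6 was below 0, at -0.00064 (SE 0.23). The median log2 fold change was 0.21 for members, 0.16 for genes of similar length and -0.01 for all genes, and the members' value was -0.02 without siR_Ctrl replicate 1 and -0.06 without siR_Ctrl + IFN-γ replicate 2. After removal of the length trend it was 0.01, and again no member was called, where 11.2% of all genes were. At an unadjusted p below 0.05 there were 3 members, against 22.8% of all genes. The p-values measure the spread between these libraries, which the study describes as biological triplicates and the labels do not describe further.

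For siR_Nostrill against siR_Ctrl without IFN-γ, all 79 members had a positive fold change, and none was called in edgeR's test, where 0.218% of all genes were called. No member had an unadjusted p below 0.05, against 13.8% of all genes. DESeq2 and limma called none, again with no share of all genes given here for them. The smallest p belonged to Rps4x, an X-linked 40S gene, at 0.44 (SE 0.22, adjusted p = 0.376 in edgeR) and to Rpl39, whose small protein lines the exit tunnel, at 0.62 (SE 0.32, adjusted p = 0.383). The median was 0.32 for members and 0.28 for genes of similar length, and it was 0.09 for members without siR_Ctrl replicate 1. After removal of the length trend the members' median was -0.03, 35 of 79 were positive, and none was called, where 3.39% of all genes were. At an unadjusted p below 0.05 there were then 10 members, or 12.7%, against 19.3% of all genes and 16.4% of genes of similar length. They were led by Rps29 at -0.28 (SE 0.08, adjusted p = 0.0787).

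The next 2 comparisons both involve siR_Nostrill + IFN-γ cells, and so share those 3 libraries. Against siR_Ctrl + IFN-γ, edgeR's test on the normalized counts called no member, where 0.429% of all genes were called. An unadjusted p below 0.05 was found for 2 members, against 14.5% of all genes. DESeq2 and limma called none, with no share of all genes given here for them. The median log2 fold change was -0.30 for members, -0.13 for genes of similar length and -0.16 for the 68 of these that were also as abundant as members. The members' median was -0.02 without siR_Ctrl + IFN-γ replicate 2. The smallest p belonged to Rps23 (gene ID 66475, GRCm38.p6 chr13:90923122-90924732), a protein of the decoding centre, at -0.88 (SE 0.30, adjusted p = 0.196), and to Rpl3, at -0.46 (SE 0.20, adjusted p = 0.307).

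With the length trend removed, 17 of 79 members were called in edgeR's test for siR_Nostrill + IFN-γ against siR_Ctrl + IFN-γ, 15 lower and 2 higher. Of all genes 13% were called, 6.81% lower and 6.18% higher, and of genes of similar length 9.89% were lower and 9.14% higher. The members' median was -0.15, while that of similar-length genes was -0.004 and that of the abundant ones among them -0.04. The trend was fitted on the other genes, which include those of similar length, and not on the members. The similar-length median is thus held near 0 by the fit, and its distance from the members' median cannot be read as particular to the family. Among the 15 lower members were Rps23, Rps21, Rps12, Rps9, Rps29 and Rps25 of the 40S subunit and Rpl36a, Rpl3, Rpl8, Rpl5, Rpl36, Rpl31, Rpl14 and Rpl10a of the 60S subunit, with log2 fold changes from -0.69 to -0.23. The 2 higher were Rps27 and Rpl39. Of these calls, Rps23, Rps21, Rps12, Rpl36a, Rpl3, Rpl8 and Rps27 stood in each of 12 fits that left out a library, whereas the others were each lost in at least 2 of them. Leaving out siR_Ctrl + IFN-γ replicate 2 lowered the count from 17 to 7 (6.8% of all genes were called in that fit), leaving out replicate 1 of that group lowered it to 11 (8.33%), and leaving out siR_Nostrill + IFN-γ replicate 1 or replicate 2 lowered it to 9 (5.55% and 5.35%), so that the calls over all genes fell as well. The groups did not overlap, on counts with the trend removed, for 31 members that were lower and 5 that were higher, where 16.5% and 16.4% of all genes and 20.1% and 19.2% of those of similar length did not overlap in the same directions. Among the abundant genes of similar length these shares were 26.5% and 17.6%. On CPM without removal of the trend, only 3 members were lower without overlap and 0 were higher, where 10.4% and 11.1% of all genes and 7.5% and 3.14% of those of similar length were, so that this count depends on the scale.

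**Figure D3:**
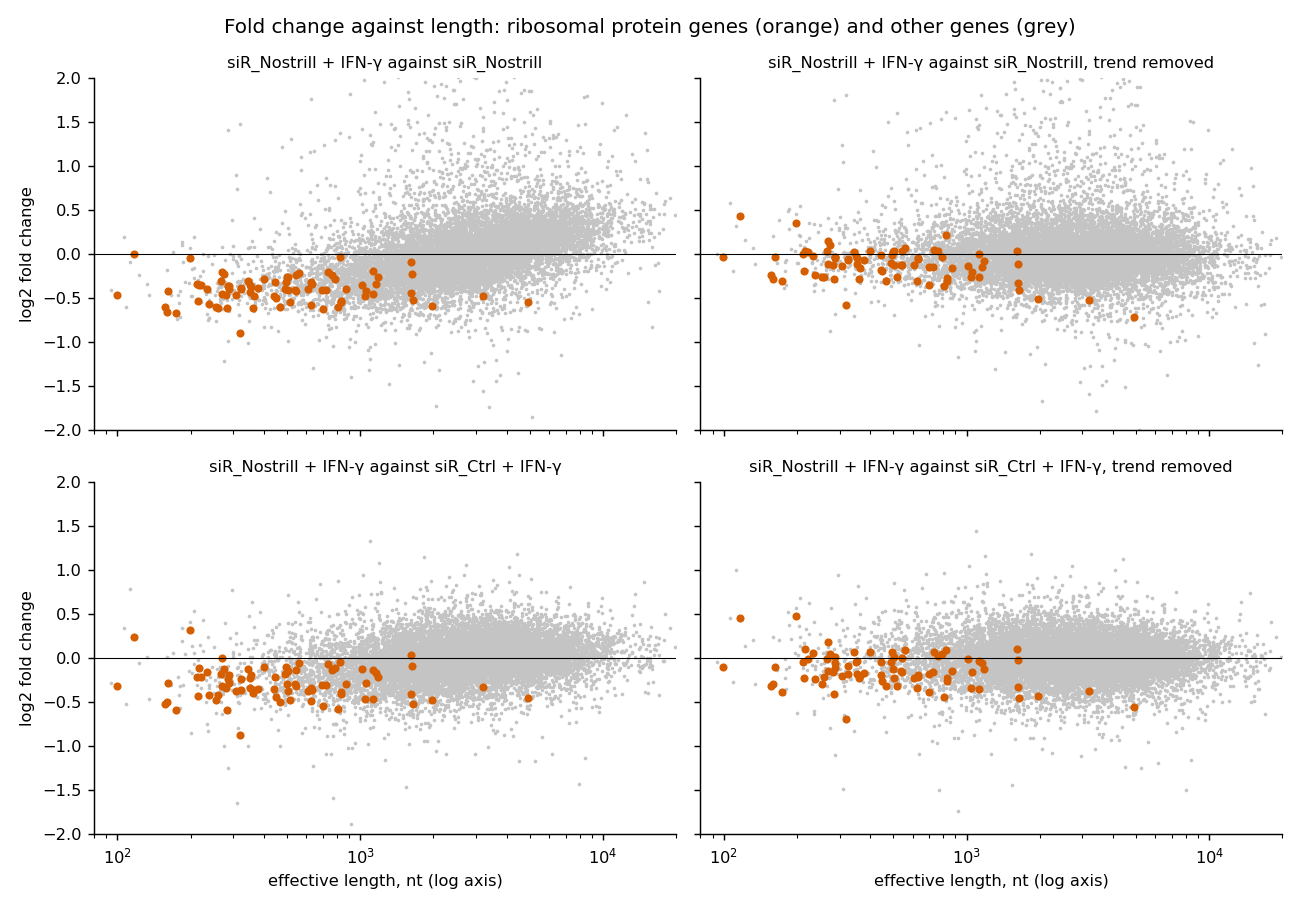
Log2 fold change against effective length (log axis) for siR_Nostrill + IFN-γ against siR_Nostrill (top) and against siR_Ctrl + IFN-γ (bottom), before (left) and after (right) removal of the length trend, with ribosomal protein genes in orange and other tested genes in grey. Genes beyond ±2 are not drawn, and the members' medians go from -0.40 to -0.11 (top) and from -0.30 to -0.15 (bottom).

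Rps23 stood lowest among the called members. Its level was 2636, 4122 and 3497 TPM in siR_Ctrl, 3805, 4825 and 3834 in siR_Ctrl + IFN-γ, 3454, 4932 and 4020 in siR_Nostrill, and 2522, 2576 and 2409 in siR_Nostrill + IFN-γ. All 3 siR_Nostrill + IFN-γ libraries were below each of the other 9. As a share of all ribosomal protein TPM, Rps23 took 1.20, 1.18 and 1.04% there and from 1.34 to 1.79% in the other 9 libraries. With the length trend removed, the fold change against siR_Ctrl + IFN-γ was -0.69 (SE 0.11, adjusted p = 0.00206, edgeR), and it lay between -0.74 and -0.64 in the fits that left out a library. Rps23 has an effective length of 319 nt.

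Rps27 (gene ID 57294, chr3:90212667-90213648), a 40S zinc finger protein, went the other way. Its level was 3859, 4424 and 3425 TPM in siR_Ctrl + IFN-γ and 4803, 4988 and 5159 TPM in siR_Nostrill + IFN-γ, which did not overlap. In siR_Ctrl it was 2918, 4186 and 3871 TPM and in siR_Nostrill 4951, 4518 and 3507 TPM, so that 1 siR_Nostrill library reached into the range with IFN-γ. The fold change with the trend removed was 0.45 (SE 0.08, adjusted p = 0.00292, edgeR) and without that step 0.25 (SE 0.34, adjusted p = 0.790).

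Rpl39 (gene ID 67248, chrX:37082518-37085222) had 3189, 3142 and 2976 TPM in siR_Ctrl + IFN-γ and 4367, 4102 and 4011 TPM in siR_Nostrill + IFN-γ, also without overlap. It had 2107, 3608 and 2534 TPM in siR_Ctrl and 4399, 3743 and 2998 TPM in siR_Nostrill. Its fold change with the trend removed was 0.48 (SE 0.12, adjusted p = 0.0210, edgeR), and the call was lost without siR_Ctrl + IFN-γ replicate 2 (adjusted p = 0.0737) and without siR_Nostrill + IFN-γ replicate 1 (0.0888) or replicate 2 (0.0699). Both higher members are under 200 nt in effective length, 117 nt for Rps27 and 199 nt for Rpl39, where only 22 other tested genes lie and the fitted trend rests mostly on longer genes. Of the 15 lower members, 3 (Rps21, Rps29 and Rpl36) are under 200 nt.

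The other members of smallest p were close to one another in size of change. On the scale of CPM (reads scaled for library size) with the length trend removed, Rps21, a small protein of the 40S subunit, was at 598, 555 and 567 in siR_Ctrl + IFN-γ and 469, 477 and 459 in siR_Nostrill + IFN-γ (log2 fold change -0.29, SE 0.06, adjusted p = 0.00653, edgeR). Rpl36a was at 389, 401 and 396 CPM and then 307, 321 and 338 CPM (-0.30, SE 0.06, adjusted p = 0.00685). These 2 genes did not overlap between the groups. Rpl3, which reaches towards the peptidyl transferase centre, was at 2076, 2323 and 2184 CPM and then 1590, 1725 and 1832 CPM (-0.35, SE 0.07, adjusted p = 0.00743). Rps12, of the 40S beak, was at 1055, 1182 and 1144 CPM and then 866, 813 and 879 CPM (-0.40, SE 0.08, adjusted p = 0.00832). In each of these genes the 3 siR_Nostrill + IFN-γ libraries were the lower ones, and on this scale they were also below all 6 libraries without IFN-γ.

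**Figure D4:**
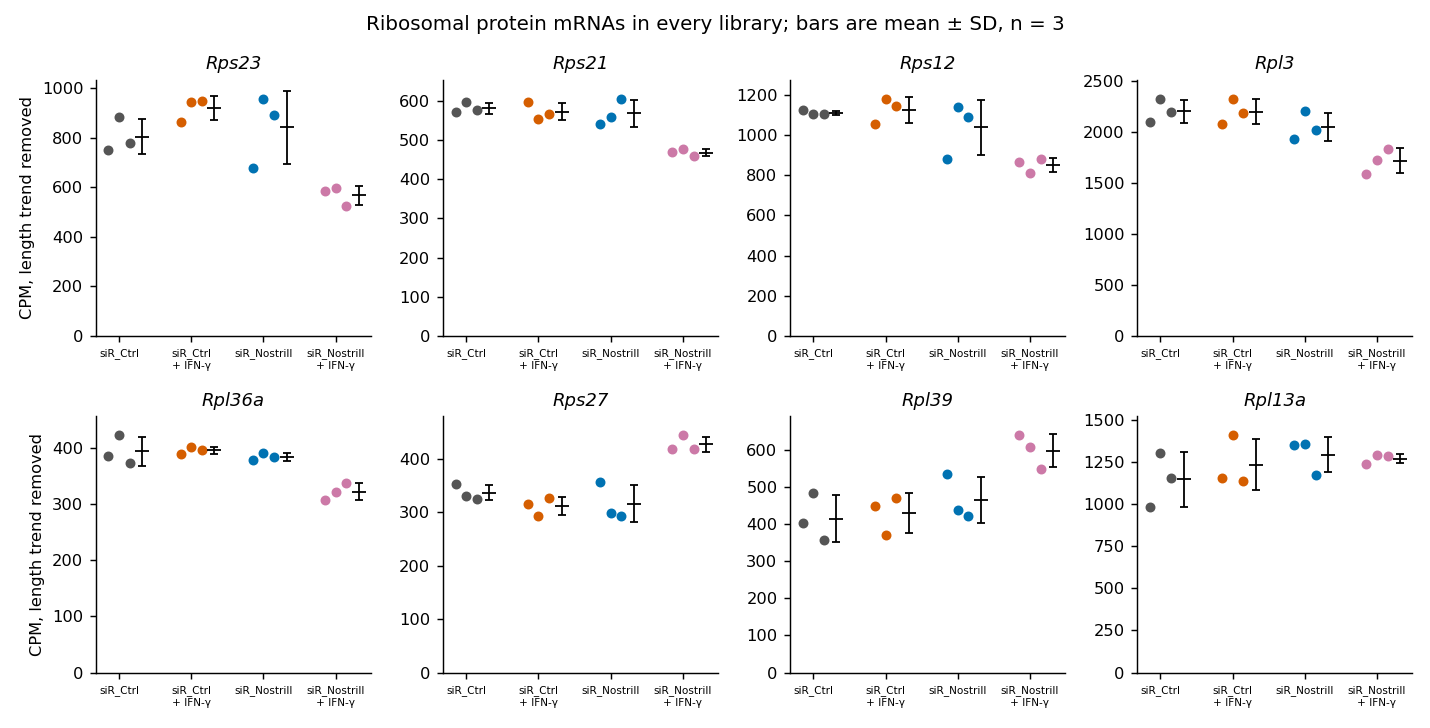
CPM with the length trend removed for 8 ribosomal protein mRNAs in every library (points in replicate order) with mean ± SD of 3 libraries beside them. Rps23, Rps21, Rps12, Rpl3 and Rpl36a are lowest in siR_Nostrill + IFN-γ, Rps27 and Rpl39 are highest there, and Rpl13a overlaps between all groups.

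The effect of IFN-γ within siR_Nostrill cells gave a similar picture on the same 3 libraries. edgeR's test on normalized counts called no member, where 6.78% of all genes were called, and 4 members had an unadjusted p below 0.05, against 21.9% of all genes. DESeq2 called 1, Rps23 (-0.90, SE 0.30, adjusted p = 0.0320), where it called 8.87% of all genes, and limma called none on FPKM and 1 on TPM, where it called 5.31% of all genes. When only the 6 libraries of this comparison entered the edgeR fit, 16 members were called, all lower, where 17% of all genes were called in either direction. The median was -0.40 for members, -0.27 for genes of similar length and -0.24 for the abundant ones. Once the length trend was removed, 15 members were called, 14 lower and 1 higher, where 19% of all genes were called, 7.87% lower and 11.2% higher. In genes of similar length these shares were 9.69% and 11.6%. The 1 higher was Rps27 at 0.43 (SE 0.08, adjusted p = 0.00113). Without removal of the trend, its fold change in this comparison was near 0 and changed sign between settings, so that this call depends on that step. Rps23 led the lower ones at -0.57 (SE 0.11, adjusted p = 0.00221), followed by Rps21 at -0.28 (SE 0.06, adjusted p = 0.00348). Those 3 and Rpl36a were called in all 12 fits that left out a library. The 12 include fits without a library of siR_Ctrl or siR_Ctrl + IFN-γ, which are not compared here. Those fits called 11 to 18 members (16.8 to 21.7% of all genes). Among the groups compared, the count was 4 without siR_Nostrill replicate 2 (10.7% of all genes were called in that fit) and 6 without siR_Nostrill + IFN-γ replicate 1 (12.5%). It was 7 without siR_Nostrill + IFN-γ replicate 2 (12.2%) and 9 without siR_Nostrill replicate 3 (14.8%). The groups did not overlap for 19 members that were lower and 3 that were higher, where 19.6% and 21.3% of all genes did not overlap, so the members' count of 19 of 79 (24.1%) lies near that background. On CPM without removal of the trend these were 16 (20.3%) and 0 members, against 16.9% and 18.5% of all genes. Genes of similar length were at 25.9% lower and 5.32% higher, and the abundant ones among them at 16.2% and 2.94%, so short genes outside the family were also more often lower.

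Whether IFN-γ acted differently in siR_Nostrill and siR_Ctrl cells was tested by the interaction. No member was called, as no gene was, so that the share of all genes called was 0%. At an unadjusted p below 0.05 there were 5 members, or 6.33%, against 10.7% of all genes. DESeq2 and limma called no member, with no share of all genes given here for them. All 79 values were negative, with a median of -0.61 against -0.42 for genes of similar length. Rps23 had the smallest p (-1.31, SE 0.43, adjusted p = 0.430, edgeR), followed by Rpl36 (-1.14, SE 0.44, adjusted p = 0.430). Without the length trend, the median was -0.09 and 22 members, or 27.8%, had an unadjusted p below 0.05 without any call, against 2268 of the 11900 genes and 22.6% of genes of similar length. Rps27 was then at 0.54 (SE 0.11) and Rps23 at -0.76 (SE 0.15), both with an adjusted p of 0.123. Calls appeared under other settings. With the replicate block as well, 4 members were called, Rps23, Rps27, Rps14 and Rps3, where 2.09% of all genes were, and with the trend removed, no block and siR_Nostrill replicate 1 left out there were 3, Rps23, Rps27 and Rpl36, among 7 of all genes. Whether the response of members to IFN-γ differed between the siRNAs thus depends on the setting, and the calls in the other comparisons do not show it.

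Some members are also known for roles off the ribosome or in disease. Rpl13a, of the GAIT complex, was at 1631, 2406 and 2136 TPM in siR_Ctrl and 2062, 2628 and 1952 TPM in siR_Ctrl + IFN-γ. It was at 2656, 2605 and 2185 TPM in siR_Nostrill and 2211, 2335 and 2372 TPM in siR_Nostrill + IFN-γ. All 4 groups overlapped, and the fold change for IFN-γ in siR_Ctrl cells was 0.26 (SE 0.29, adjusted p = 0.743, edgeR). Rpl5 and Rpl11 bind Mdm2 and so stabilize p53. With the length trend removed, Rpl5 fell by 0.34 (SE 0.08, adjusted p = 0.0160) in siR_Nostrill + IFN-γ against siR_Ctrl + IFN-γ, a call lost without siR_Ctrl + IFN-γ replicate 2 or siR_Nostrill + IFN-γ replicate 1, whereas Rpl11 was at -0.26 (SE 0.14, adjusted p = 0.240). The following values are for the same comparison, also with the trend removed. Rps3, also a partner of NF-κB p65, was at -0.45 (SE 0.15, adjusted p = 0.0652). Rpl22 was at -0.43 (SE 0.19, adjusted p = 0.143), Rpl26, which binds p53 mRNA, at -0.21 (SE 0.07, adjusted p = 0.0852), and Rps19, mutated in Diamond-Blackfan anaemia, at -0.18 (SE 0.06, adjusted p = 0.0766). The stalk genes Rplp0, Rplp1 and Rplp2 were at -0.03, 0.06 and -0.01, Rps6 at -0.06, Rps27l at 0.04 and Rpsa, also known as the laminin receptor, at -0.02, all with an adjusted p of 0.661 or more. None of these members except Rpl5 was called.

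Lists of related genes were set beside the members. Of 6 ribosomal protein genes outside the symbol rule, none was called on normalized counts in any comparison. With the trend removed, Fau, which encodes Rps30, fell by 0.42 (SE 0.08, adjusted p = 0.00555, edgeR) in siR_Nostrill + IFN-γ against siR_Ctrl + IFN-γ. Of 78 mitochondrial ribosomal protein genes, which are also short (median 824 nt), none was called on normalized counts, and their median for the interaction was -0.42. Of 72 nuclear-encoded respiratory chain genes (median 450 nt) none was called either, and that median was -0.52, close to the -0.61 of the cytosolic family. With the trend removed, 8 mitochondrial ribosomal protein genes were higher and 5 lower in siR_Nostrill + IFN-γ against siR_Ctrl + IFN-γ, where 6.18% of all genes were higher and 6.81% lower, with a median of -0.02, and Mrpl18 (-0.47, adjusted p = 0.00107) and Mrps34 (-0.33, adjusted p = 0.00618) had the smallest p. In the respiratory chain 7 were higher and 11 lower, with a median of -0.04, led by Uqcr11 (-0.63, adjusted p = 0.000419) and Atp5l (0.57, adjusted p = 0.00105).

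The machinery that makes and uses ribosomes was first compared on normalized counts, where 5.45% of all genes were called for IFN-γ in siR_Ctrl cells, 6.78% for IFN-γ in siR_Nostrill cells and 0.429% for siR_Nostrill against siR_Ctrl with IFN-γ. Of 45 initiation factors, Eif4e3, an eIF4E homolog, rose by a log2 fold change of 1.77 (SE 0.32, adjusted p = 0.00602, edgeR) with IFN-γ in siR_Ctrl cells and 3.40 (SE 0.35, adjusted p = 5.3e-05) in siR_Nostrill cells. Of 9 elongation and termination factors, the release factor Etf1 was higher in siR_Nostrill + IFN-γ than in siR_Ctrl + IFN-γ (0.46, SE 0.07, adjusted p = 0.0341). Of 40 ribosome biogenesis factors, none was called on normalized counts in any comparison. For RNA polymerase I, which makes ribosomal RNA, 14 genes were tested. Polr1b fell by 0.41 (adjusted p = 0.0304) with IFN-γ in siR_Ctrl cells, and Ubtf fell by 0.40 (adjusted p = 0.0278) with IFN-γ in siR_Nostrill cells.

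With the trend removed, more of these genes were called, as of all genes. For IFN-γ in siR_Ctrl cells, where 8.13% of all genes were higher and 3.02% lower, 1 biogenesis factor was higher and 6 were lower, led by the higher Sdad1 (0.32, adjusted p = 0.00181, edgeR) and by Mak16, which fell by 0.36 (adjusted p = 0.00320). For IFN-γ in siR_Nostrill cells, 2 biogenesis factors were higher and 6 lower, 2 initiation factors were higher and 4 lower, and 3 RNA polymerase I genes were lower, where 11.2% of all genes were higher and 7.87% lower. For siR_Nostrill against siR_Ctrl with IFN-γ, where 6.18% of all genes were higher and 6.81% lower, 3 initiation factors were higher and 7 lower. Among these, Eif3a, a large subunit of eIF3, fell by 0.64 (adjusted p = 0.000218) and the helicase gene Eif4a1 fell by 0.37 (adjusted p = 0.00162). In that comparison 2 RNA polymerase I genes were higher, Rrn3 (0.30, adjusted p = 0.0126) and Znrd1 (0.25, adjusted p = 0.0426). There 2 biogenesis factors were higher and 1 lower, led by Nop10, of the box H/ACA particles, at 0.85 (adjusted p = 0.000396).

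Single genes were called in each of the lists of regulators, on normalized counts, where 5.45% of all genes were called for IFN-γ in siR_Ctrl cells and 6.78% in siR_Nostrill cells. Larp1, 1 of 14 mTORC1 and TOP control genes, was higher with IFN-γ in siR_Nostrill cells (0.41, SE 0.11, adjusted p = 0.0423, edgeR). Of the GAIT complex and its kinases, with 5 genes tested, the kinase gene Dapk3 fell by 0.56 (SE 0.14, adjusted p = 0.0289) in the same comparison, and was at -0.70 (SE 0.14, adjusted p = 0.0569) in siR_Nostrill + IFN-γ against siR_Ctrl + IFN-γ. Of 12 genes of ribosome quality control and ribosomal stress, the p53 target Cdkn1a rose by 0.95 (SE 0.16, adjusted p = 0.00269) with IFN-γ in siR_Ctrl cells. Of 19 other mRNAs known to carry a TOP tract, none was called on normalized counts. With the trend removed 1 was higher and 2 were lower in siR_Nostrill + IFN-γ against siR_Ctrl + IFN-γ, near the 6.18% and 6.81% of all genes, with a median of -0.05, and 2 were higher and 3 lower with IFN-γ in siR_Nostrill cells, where 11.2% and 7.87% of all genes were. Of the 15 members that were lower in siR_Nostrill + IFN-γ against siR_Ctrl + IFN-γ, 10 had a promoter entry and 5 of these had a pyrimidine tract, against 27 of 60 members in all, and both higher members had one.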

How the data were processed

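Polyadenylated RNA was sequenced in 12 libraries (4 groups of 3, from the labels). Per the methods of the study, the authors filtered reads with SOAPnuke and aligned them to GRCm38.p6 with HISAT2 and Bowtie2. The sources used here do not give the counting tool. The authors deposited an estimated count per gene, not normalized, which was exactly whole (tolerance 0) for 90.6 to 91.6% of genes in a library. They also deposited FPKM, scaled by the authors for length and mapped reads, and TPM.

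Counts were rounded and tested with edgeR 4.0.16 in R 4.3.3 (quasi-likelihood, TMM, filterByExpr, all libraries in 1 fit, Benjamini-Hochberg adjustment over 11900 genes, threshold 0.05). Effective length was count divided by FPKM and library total. The length trend was a lowess (span 0.3) of log2 counts per library, fitted without the members and entered as an offset. Alternatives were DESeq2 1.42.0, limma 3.58.1 on log2(FPKM + 1), log2(FPKM + 0.1) or log2(TPM + 1), DESeq2 size factors, TMM without members, other filters, a block for replicate number, only the groups compared, and each library left out. limma on TPM and the left-out libraries with the trend removed were chosen after seeing the data. Scripts were tested on simulated data. Members and lists were chosen with earlier results of these data known. Named were the 5 highest and 5 lowest members by FPKM, members of smallest p in each direction, the 6 of smallest p called with the trend removed, members with roles off the ribosome, and paralogs; others are named where a count of calls lists them. A few genes that entered the fits and counts are not reported here by name.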

Additional observations from a re-analysis of the deposited data

How the results depend on the processing

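The 5 counts of members called and the 5 medians were recomputed under each alternative. For IFN-γ in siR_Nostrill cells the count of 0 became 15 with the length trend removed. It was 20 with the trend removed and the replicate number as a block (22.4% of all genes were called in that fit). It was 16 with only the groups compared. It was 1 with the replicate block alone (share of all genes not given here), with DESeq2 and with limma on log2(TPM + 1). It ranged from 0 to 1 over the fits that left out a library (1 without siR_Ctrl replicate 1), and from 4 to 18 over those with the trend removed. For siR_Nostrill against siR_Ctrl with IFN-γ, 0 became 17 with the trend removed and 23 with the trend removed and the replicate block (15.9% of all genes), and from 7 to 20 with the trend removed and a library left out. With the trend removed and the block, 1 member was called for IFN-γ in siR_Ctrl cells (12.1% of all genes) and 4 for the interaction (2.09% of all genes), where left-out libraries with the trend removed gave 0 to 3 (3 without siR_Nostrill replicate 1). The interaction median of -0.61 became -0.091 with the trend removed and -0.085 with the block as well. The cause of these shifts was not tested beyond the removal itself.

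Values near 0 changed sign. Rps6 for IFN-γ in siR_Ctrl cells was 0.0026 without a filter on low counts, 0.0061 with a mean of at least 5 CPM, and -0.20 to 0.17 with a library left out. Without removal of the length trend, Rps27 for IFN-γ in siR_Nostrill cells was -0.0029 with DESeq2, -0.0033 with its size factors, -0.0021 with TMM factors without members, and -0.23 to 0.24 with a library left out. None of these was called. The correlation of deviations between same-numbered libraries of 2 groups ranged from -0.49 to 0.73 over 18 pairs. Pairs with different numbers are not given here, so these values cannot tell whether the replicate numbers pair the libraries. Precision is limited by 3 libraries in each group and by the length trend, which for members under 200 nt rests mostly on longer genes, since only 22 other tested genes are as short.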
